A study of Rattus norvegicus with 9 samples.

Results

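Transcripts of 34 genes of cholesterol metabolism were followed in striatal tissue of rats from a Sham group, a group with intracerebral hemorrhage and a group named for the drug edaravone dexborneol. The genes were chosen by name, to cover synthesis, its control, efflux and storage. Of the 34, 33 had a row among the 22890 gene IDs of the deposited count tables, and all 33 were among the 14274 genes that passed the filter on low counts. They comprise 16 enzymes of synthesis, 6 genes of its control and of sterol transport, and 11 genes of efflux and storage. The expression of Fdps, farnesyl diphosphate synthase, was not analysed here.

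RNA was sequenced in 9 libraries, 3 in each of the groups Sham, ICH (intracerebral hemorrhage, a bleed within the brain) and EDB (edaravone dexborneol, a neuroprotective drug combination that contains a free radical scavenger). The labels give the tissue and the group of each library. The sources used here do not give whether rats of the EDB group had a bleed as well, nor the strain, sex, age, dose, time or way of inducing the hemorrhage, and EDB is therefore set against ICH and against Sham. No label ties the libraries of a group to separate rats, and the p-values below therefore measure only the spread between these samples, which may be technical. The 3 comparisons share libraries: the ICH libraries enter ICH against Sham and EDB against ICH, and the Sham libraries enter both comparisons with Sham.

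The adult brain makes nearly all of its own cholesterol, since lipoproteins of the blood do not cross the blood-brain barrier. When membranes of the endoplasmic reticulum run low in sterol, Scap escorts the SREBP transcription factors (Srebf1 and Srebf2) to the Golgi, where they are cleaved and then activate the genes of synthesis, while Insig1 and Insig2 hold the complex back when sterol is plentiful. Surplus cholesterol is sensed as oxysterols by the liver X receptors (Nr1h2 and Nr1h3), which activate the exporters Abca1 and Abcg1. It can also be stored as ester by Soat1. In lysosomes, Lipa, Npc2 and Npc1 release cholesterol from engulfed lipid. Oligodendrocytes use much cholesterol for myelin, and phagocytes take up sterol from myelin debris.

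Library totals ran from 14658110 to 17659936 counts. Markers of striatal projection neurons summed to between 6348 and 15440.3 CPM (counts scaled to a common library total, after TMM) in the 9 libraries, so markers of the labelled tissue were present in each. Some libraries stood apart. Sham 2 lay away from Sham 1 and Sham 3 along the second principal component (19.8% of the variance), EDB 3 held choroid plexus transcripts (6 markers summing to 7220.2 CPM, against 27.6 to 73.3 elsewhere), and liver markers summed to 204 and 201 CPM in Sham 1 and Sham 3, against 3.85 to 32.9 in the others. The changes were therefore refitted without Sham 2 and EDB 3, and with the 6 libraries that held more than 15 CPM of the liver transcript Alb. These 6 were Sham 1, Sham 3, ICH 2, ICH 3, EDB 2 and EDB 3. Their liver markers summed to 204 and 201 CPM in Sham, 27.4 and 23.6 in ICH and 23.3 and 32.9 in EDB. Liver transcripts thus still differed between Sham and the other groups, and this refit does not remove them from the comparisons with Sham.

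In ICH, several genes that export, store and release cholesterol were higher than in Sham, and a few that make it or control its making were lower. Over the whole set, the shares called were not far from those of all genes. In ICH against Sham, 5 of the 33 genes rose (Abca1, Soat1, Npc2, Lipa and Ch25h) and 4 fell (Tm7sf2, Msmo1, Srebf2 and Insig1), at a Benjamini-Hochberg adjusted p under 0.05 in edgeR's quasi-likelihood test over all genes. Each log2 fold change is printed ± its SE and compares 3 with 3 libraries. The SE is derived from the test, as the absolute log2 fold change divided by the square root of its F statistic. The calls are 15.2% and 12.1% of the set, not far from the 11.4% of all genes tested that rose and the 7.30% that fell. The 5 that rose all belong to the 11 genes of efflux and storage (45.5%), whose median log2 fold change was 0.61. This class also takes in lysosomal release, liver X receptors and oxysterol enzymes. The rises were 3 of its 4 genes of esterification and lysosomal release, 1 of 3 efflux genes, 1 of 2 oxysterol enzymes and neither receptor. The 4 that fell belong to synthesis (2 of 16, 12.5%, median log2 fold change -0.36) and to control and transport (2 of 6, 33.3%, median -0.31). The median of all genes tested was 0.01. All 3 ICH libraries lay above all 3 Sham libraries for 5 of the 33 genes (15.2%), a smaller share than the 20.2% of all genes. They lay below them for 7 of the 33, against 15.4% of all genes.

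None of the 16 synthesis enzymes rose in ICH against Sham by edgeR, DESeq2 or limma-voom, and none was higher at an unadjusted p under 0.05. None of the 11 efflux and storage genes fell by edgeR or limma-voom, while 2 were lower at an unadjusted p under 0.05 and 1 by DESeq2. Scaled by library size alone, in place of TMM, 7 genes rose and 2 fell, since Abcg1 and Npc1 passed the threshold and Srebf2 and Insig1 did not. That scaling gave 2008 genes that rose and 691 that fell over all genes, against 1628 and 1042 with TMM. The 4 calls of a fall were close to the threshold: without ICH 3 none of them passed, and without ICH 1 only that of Msmo1 did. The log2 fold changes of Tm7sf2, Msmo1, Srebf2 and Insig1 were -1.28, -0.86, -0.53 and -0.80 without ICH 1 and -1.08, -0.64, -0.47 and -0.47 without ICH 3. The median of the synthesis enzymes was -0.23 without ICH 3 and -0.58 without ICH 2.

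Fewer genes were called in EDB against ICH. Abca1 and Soat1 fell, 2 of 33 genes (6.06%), and none rose, against 0.631% of all genes that fell and 0.0560% that rose. At an unadjusted p under 0.05, 3 of the 33 genes were higher, and DESeq2 and limma-voom called none higher. The median log2 fold change was -0.38 for efflux and storage, 0.18 for synthesis and 0.39 for control and transport, beside -0.03 for all genes tested. All 3 EDB libraries lay above all 3 ICH libraries for 6 of the 33 genes and below them for 6, against 11.6% and 13.6% of all genes. The median for synthesis moved to 0.05 without EDB 3, to 0.10 without ICH 3 and to 0.29 without EDB 1 or ICH 1.

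In EDB against Sham, Soat1, Npc1, Npc2 and Lipa rose, 4 of 33 genes (12.1%), and none fell, against 4.95% of all genes that rose and 2.71% that fell. These 4 are the genes of esterification and lysosomal release, and none of the 3 efflux genes was called. At an unadjusted p under 0.05, 1 of the 33 genes was lower, and DESeq2 and limma-voom called none lower. The medians were 0.63 for efflux and storage, -0.25 for synthesis and 0.03 for control and transport, beside -0.01 for all genes tested. All 3 EDB libraries lay above all 3 Sham libraries for 6 genes and below them for 1, against 15.1% and 10.9% of all genes. Without EDB 1 the median for synthesis was -0.10, and without Sham 2 it was -0.13. Without Sham 2 and EDB 3, 9 of the 33 genes were called in ICH against Sham, 2 in EDB against ICH and 6 in EDB against Sham. With only the 6 libraries that held liver transcripts, the counts were 11, 0 and 4, so that the falls of Abca1 and Soat1 in EDB against ICH were not called there.

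**Figure D1:**
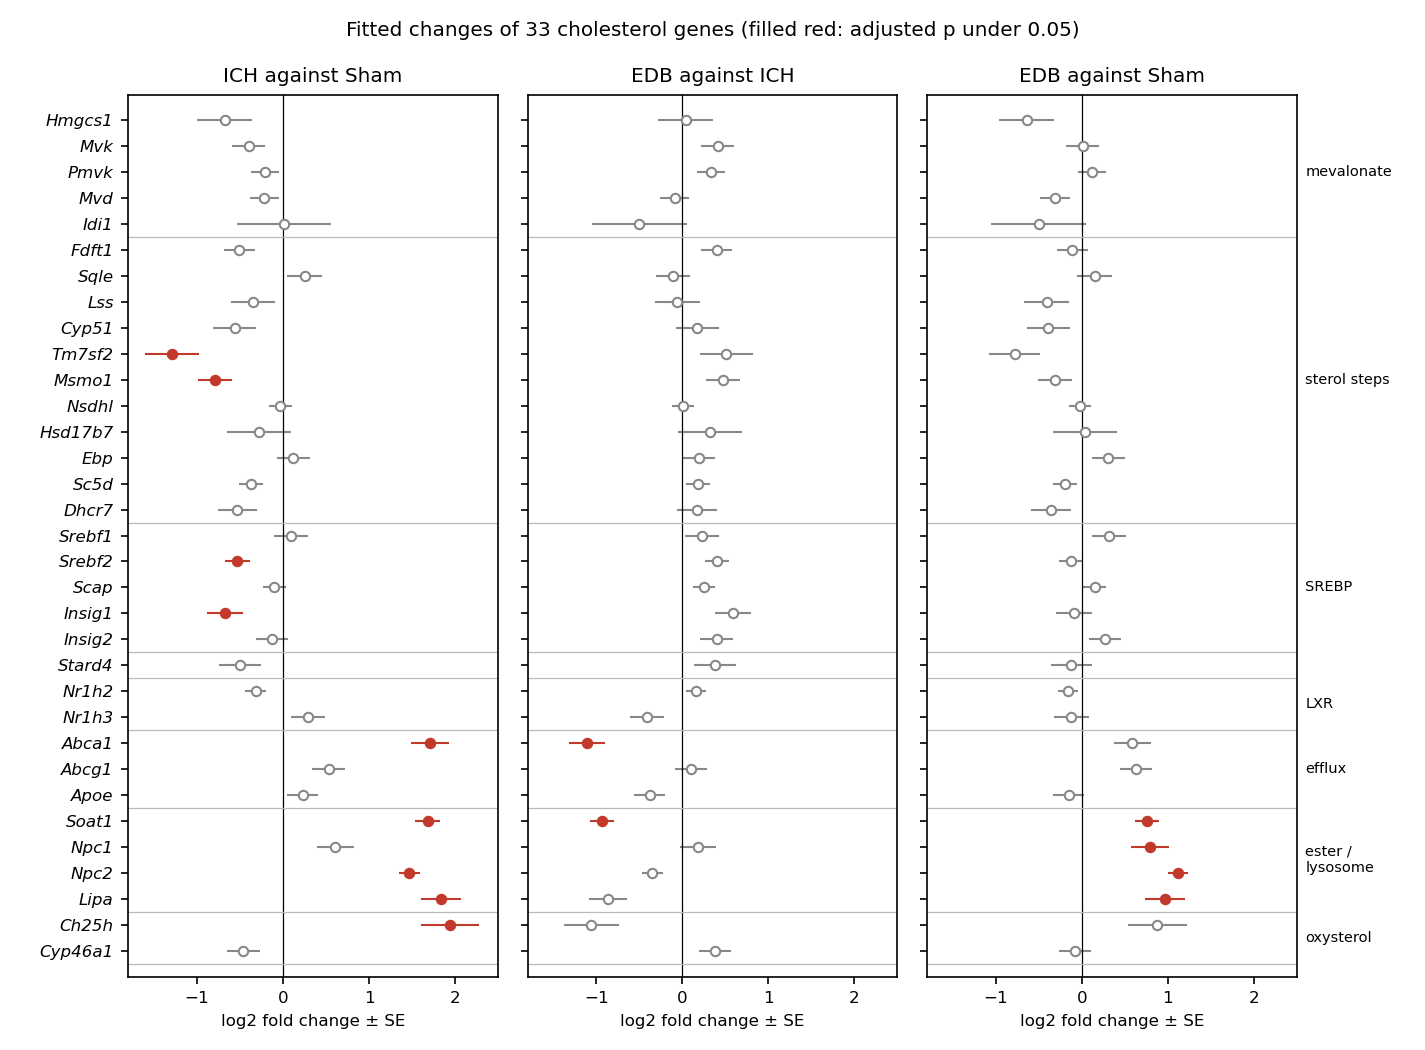
Log2 fold change ± SE of the 33 genes in ICH against Sham, EDB against ICH and EDB against Sham, with filled red points for genes past an adjusted p of 0.05. The 5 rises in ICH against Sham are all among the efflux and storage genes, with log2 fold changes from 1.47 (Npc2) to 1.94 (Ch25h), and the synthesis enzymes lie mostly below 0.

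The exporter Abca1 loads cholesterol onto apolipoproteins at the cell surface and is a classic target of the liver X receptors. Its promoter is shown because it is the 1 promoter among 29 members with a sequence that holds the repeat these receptors bind. The 250 bases before the gene's start are taken from RefSeq's GRCr8 assembly, which is not the Rnor_6.0 build of the count tables, and lie on the minus strand at chr5:72596474-72596723. Capitals mark the match to a direct repeat, GGTNA and GGTCA with 5 free bases between them, read on the opposite strand, 70 bases upstream of the start.
Abca1: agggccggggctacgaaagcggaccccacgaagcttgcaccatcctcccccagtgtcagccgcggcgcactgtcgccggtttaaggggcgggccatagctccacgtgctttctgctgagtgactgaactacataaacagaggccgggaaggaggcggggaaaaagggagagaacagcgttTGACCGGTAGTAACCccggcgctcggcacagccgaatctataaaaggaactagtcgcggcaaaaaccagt
Both strands were searched, and 0.209% of 33469 RefSeq promoters of the same length hold the repeat. A match describes the letters in this window and does not show binding.

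Abca1 measured 20.4, 14.2 and 24.6 CPM in Sham, 66.1, 63.0 and 63.8 CPM in ICH and 36.9, 29.8 and 22.6 CPM in EDB. Every ICH library lay above the 6 others, and EDB overlapped with Sham. Abca1 thus rose in ICH against Sham with a log2 fold change of 1.71 ± 0.22 (SE, adjusted p = 0.000334), a 3.26-fold difference. Its level fell in EDB against ICH, by a log2 fold change of -1.11 ± 0.21 (adjusted p = 0.0475), and in EDB against Sham the log2 fold change was 0.59 ± 0.21 (adjusted p = 0.124). The fall in EDB against ICH was narrow: it lost its call when EDB 1, EDB 2, EDB 3, ICH 1, ICH 2, ICH 3, Sham 1 or Sham 3 was left out (adjusted p from 0.0546 to 0.151) and with the replicate number as a block (adjusted p = 0.0873), while the log2 fold change stayed between -1.30 and -0.91. Leaving out a Sham library bears on this call because all 9 libraries share 1 estimate of the spread.

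Abcg1, which passes cholesterol to lipoprotein particles, stood at 117, 189 and 116 CPM in Sham, 197, 237 and 176 CPM in ICH and 242, 205 and 205 CPM in EDB. Sham 2 was far above Sham 1 and Sham 3 and above ICH 3, and all EDB libraries lay above all Sham libraries. The log2 fold change was 0.53 ± 0.19 in ICH against Sham (adjusted p = 0.0815) and 0.63 ± 0.19 in EDB against Sham (adjusted p = 0.0753). Without Sham 2 these became 0.81 (adjusted p = 0.00461) and 0.90 (adjusted p = 0.0066), past the threshold. EDB and ICH differed by a log2 fold change of 0.10 ± 0.19 (adjusted p = 0.841).

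Apoe, the main apolipoprotein of the brain and the acceptor of exported cholesterol, ran from 4378 to 4991 CPM in Sham, from 4793 to 6513 CPM in ICH and from 3439 to 5216 CPM in EDB. The groups overlapped in every comparison. Its log2 fold change was 0.23 ± 0.18 in ICH against Sham (adjusted p = 0.439), -0.38 in EDB against ICH (adjusted p = 0.338) and -0.15 in EDB against Sham (adjusted p = 0.682).

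The receptors upstream of the exporters did not pass the test. Nr1h2, liver X receptor beta, stood at 84.0, 93.5 and 82.8 CPM in Sham, 67.9, 78.1 and 62.5 CPM in ICH and 77.2, 73.4 and 82.5 CPM in EDB. Both ICH and, narrowly, EDB lay below all Sham libraries, with a log2 fold change of -0.32 ± 0.12 in ICH against Sham (adjusted p = 0.0879 by edgeR, and past the threshold by DESeq2). Nr1h3, liver X receptor alpha, stood at 7.50, 8.55 and 9.77 CPM in Sham, 11.5, 10.4 and 9.72 CPM in ICH and 8.97, 8.33 and 6.44 CPM in EDB. All EDB libraries lay below all ICH libraries, with a log2 fold change of -0.41 ± 0.20 (adjusted p = 0.349), and in ICH against Sham it was 0.29 ± 0.20 (adjusted p = 0.366).

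Soat1, which esterifies cholesterol for storage in lipid droplets, stood at 30.4, 23.9 and 23.2 CPM in Sham, 93.9, 80.0 and 75.3 CPM in ICH and 41.3, 46.0 and 43.9 CPM in EDB. The 3 groups did not overlap, with EDB between Sham and ICH. Soat1 rose 3.22-fold in ICH against Sham (log2 fold change 1.68 ± 0.14, adjusted p = 3.79e-05) and 1.69-fold in EDB against Sham (0.76 ± 0.14, adjusted p = 0.00884). It fell in EDB against ICH (log2 fold change -0.93 ± 0.14, adjusted p = 0.0244). This fall lost its call without EDB 1, EDB 2, EDB 3, ICH 1 or ICH 2 (adjusted p from 0.0669 to 0.088), while both rises were called in all 19 alternatives (other scalings, filters and tools, and other sets of libraries).

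Lipa, the lysosomal acid lipase that releases cholesterol from engulfed esters, stood at 25.1, 20 and 31.1 CPM in Sham, 112, 80.2 and 80.7 CPM in ICH and 53.5, 60.4 and 35.8 CPM in EDB. EDB again lay between the other groups, with no overlap. Lipa rose 3.58-fold in ICH against Sham (log2 fold change 1.84 ± 0.23, adjusted p = 0.000289) and 1.96-fold in EDB against Sham (0.97 ± 0.23, adjusted p = 0.0256). In EDB against ICH the log2 fold change was -0.87 ± 0.22 (adjusted p = 0.0975 by edgeR, and past the threshold by DESeq2). The rise in EDB against Sham lost its call without EDB 1, EDB 2, Sham 1 or Sham 2 (adjusted p from 0.0534 to 0.091).

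Npc2, the soluble carrier that takes cholesterol through the lysosome, stood at 134, 151 and 132 CPM in Sham, 372, 411 and 372 CPM in ICH and 333, 299.9 and 273 CPM in EDB. EDB lay below every ICH library and far above every Sham library. Npc2 rose 2.77-fold in ICH against Sham (log2 fold change 1.47 ± 0.12, adjusted p = 2.9e-05) and 2.17-fold in EDB against Sham (1.12 ± 0.12, adjusted p = 0.00058), both called in all 19 alternatives. The log2 fold change in EDB against ICH was -0.35 ± 0.12 (adjusted p = 0.178).

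Npc1, the membrane protein that receives cholesterol from Npc2, had another order of groups. It stood at 64.7, 102 and 57.3 CPM in Sham, 129, 126 and 87.6 CPM in ICH and 138, 119 and 132 CPM in EDB, so that EDB lay above Sham without overlap and ICH overlapped with both. Npc1 rose in EDB against Sham (log2 fold change 0.79 ± 0.22, adjusted p = 0.0491), and in ICH against Sham the log2 fold change was 0.61 ± 0.22 (adjusted p = 0.0741). The first call was lost without EDB 1, EDB 2, EDB 3, ICH 1, ICH 2, Sham 1 or Sham 3 (0.0558 to 0.181), and the second comparison passed the threshold without ICH 3 or Sham 2 (adjusted p from 0.00645 to 0.0398). EDB and ICH differed by a log2 fold change of 0.18 ± 0.21 (adjusted p = 0.71).

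Of the oxysterol enzymes, Ch25h rose and Cyp46a1 did not pass the test. Ch25h, which makes an oxysterol in activated macrophages, had few counts: 42, 56 and 52 in Sham, 243, 229 and 190 in ICH and 88, 157 and 60 in EDB. In CPM these were 2.62, 3.83 and 3.68, then 14.2, 14.4 and 10.3, then 5.44, 9.41 and 3.75, so that ICH lay above all other libraries and EDB 3 fell within the range of Sham. Ch25h rose 3.83-fold in ICH against Sham (log2 fold change 1.94 ± 0.34, adjusted p = 0.00254), with a call in all 19 alternatives. Its log2 fold change in EDB against ICH was -1.06 ± 0.32 (adjusted p = 0.15 by edgeR, and past the threshold by DESeq2), and in EDB against Sham it was 0.88 ± 0.34 (adjusted p = 0.144).

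Cyp46a1, the neuronal hydroxylase through which the brain disposes of cholesterol, stood at 336, 529.8 and 347 CPM in Sham, 247, 287 and 346 CPM in ICH and 414, 381 and 349 CPM in EDB. Sham 2 was the highest of the 9 libraries, and all EDB libraries lay above all ICH libraries, by a narrow margin between EDB 3 and ICH 3. The log2 fold change was -0.46 ± 0.19 in ICH against Sham (adjusted p = 0.118) and 0.38 ± 0.19 in EDB against ICH (adjusted p = 0.356).

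**Figure D2:**
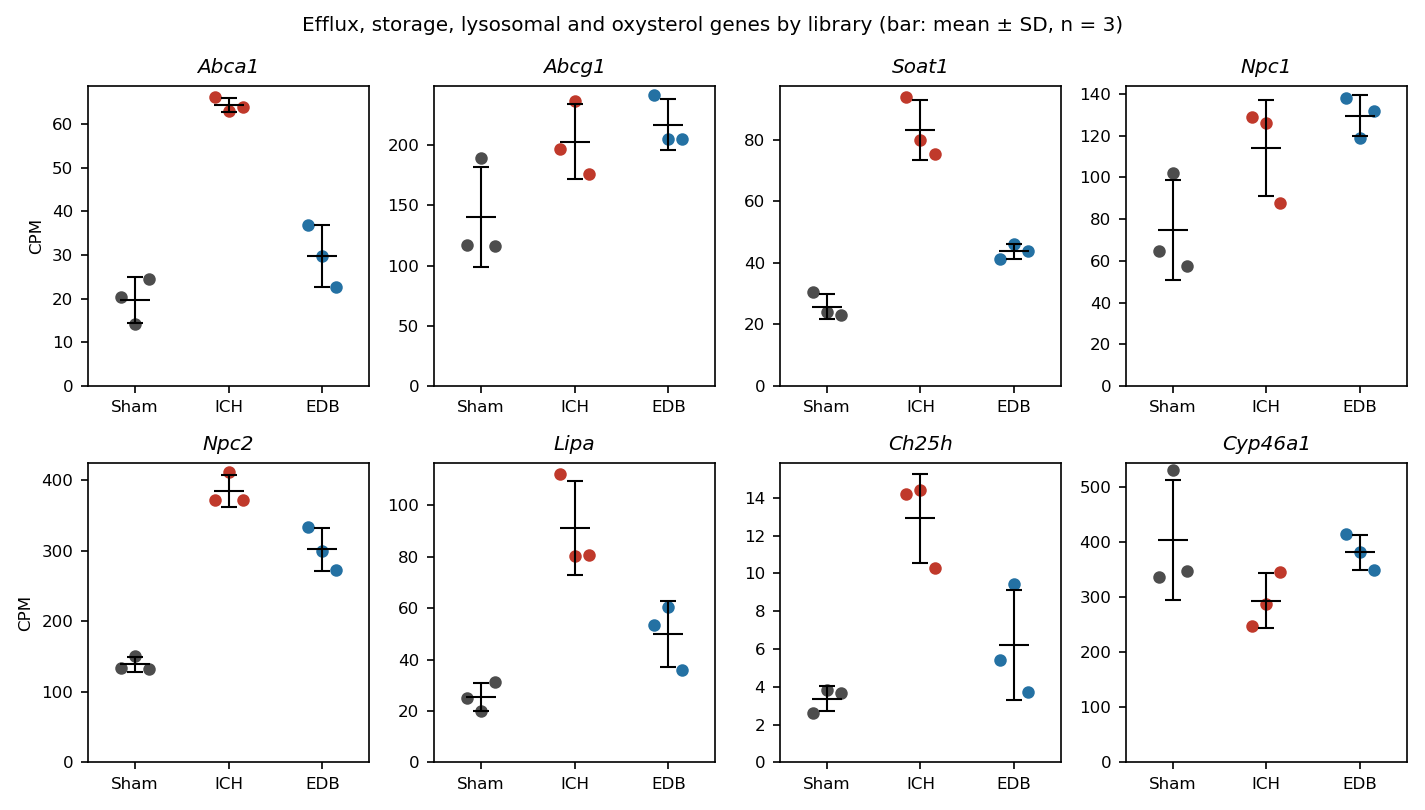
CPM by library for 8 genes of efflux, storage and oxysterol synthesis, with points for single libraries and the mean ± SD of each group of 3. For Abca1, Soat1, Npc2, Lipa and Ch25h the ICH libraries lie above all others, while for Npc1 and Abcg1 the EDB libraries overlap with ICH.

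Markers of microglia and macrophages were highest in ICH and lower in EDB, as were Abca1, Soat1, Npc2, Lipa and Ch25h. Apoe and Nr1h3 also had their highest mean in ICH. Unlike the markers, their EDB means lay below those of Sham (4288 against 4754 CPM and 7.91 against 8.61 CPM). The group means of Abcg1, Npc1, Nr1h2 and Cyp46a1 had other orders. Of 15 markers, 13 rose in ICH (86.7%) and 12 in EDB (80%) against Sham, beside 11.4% and 4.95% of all genes. None was called in EDB against ICH by edgeR or limma-voom, although 11 were lower at an unadjusted p under 0.05 and 3 by DESeq2. Their summed level ran from 768 to 901 CPM in Sham, from 3456 to 3911 CPM in ICH and from 1706 to 2975 CPM in EDB, with EDB 3 the lowest of its group, and none of the 15 was at 0 in any library. EDB 3 was also the lowest EDB library for 7 of the 11 efflux and storage genes. In ICH the order was the other way. ICH 3 had the highest marker sum (3911 CPM) but was the lowest ICH library for 6 of the 11 genes. ICH 1 had the lowest sum (3456 CPM) and was the highest for 6. The part of phagocyte number in these changes was not tested, and in bulk tissue more cells of a type and more RNA per cell cannot be told apart.

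The early steps lead from acetyl-CoA to the isoprenoid units, and none of the 5 enzymes of these steps was called in ICH against Sham, at an unadjusted p under 0.05, by DESeq2 or by limma-voom. Hmgcs1, which joins acetyl units early in the pathway, stood at 201, 140.4 and 195 CPM in Sham, 147, 118 and 69.4 CPM in ICH and 64.5, 131 and 148 CPM in EDB. The lowest values were those of EDB 1 and ICH 3, and the groups overlapped. Its log2 fold change was -0.68 ± 0.32 in ICH against Sham (adjusted p = 0.17), 0.04 ± 0.32 in EDB against ICH and -0.64 ± 0.32 in EDB against Sham (adjusted p = 0.263). With the 6 libraries that held liver transcripts, it was -1.08 in ICH against Sham (adjusted p = 0.0261). That set leaves out Sham 2, the lowest Sham library for Hmgcs1, and ICH 1, the highest ICH library.

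Mvk, mevalonate kinase, stood at 44.7, 56.0 and 34.1 CPM in Sham, 32.3, 41.2 and 28.5 CPM in ICH and 43.3, 43.6 and 48.7 CPM in EDB. All EDB libraries lay above all ICH libraries, with a log2 fold change of 0.41 ± 0.19 (adjusted p = 0.318), and in ICH against Sham it was -0.40 ± 0.19 (adjusted p = 0.177). The kinase Pmvk and the decarboxylase Mvd had log2 fold changes of -0.21 ± 0.16 and -0.22 ± 0.17 in ICH against Sham. Idi1, which isomerizes the isoprenoid unit, varied most within groups, from 3.56 to 10.2 CPM in Sham, 3.62 to 15.1 CPM in ICH and 3.46 to 7.94 CPM in EDB. Its log2 fold change of 0.01 ± 0.55 in ICH against Sham (adjusted p = 0.996) became -1.19 (adjusted p = 0.0399) with the 6 libraries that held liver transcripts. Those leave out ICH 1, the highest library, and Sham 2, the lowest of Sham.

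Of the 11 enzymes from squalene to cholesterol, Tm7sf2 and Msmo1 fell in ICH against Sham. Their promoters are shown with those of Srebf2 and Insig1, the other 2 genes of the set that fell, so that their letters can be compared. Each is the 250 bases before the start in GRCr8, with capitals on the CCAAT box or its complement ATTGG. Msmo1 lies at chr16:29746863-29747112 on the plus strand, Tm7sf2 at chr1:212789542-212789791 on the minus strand, Srebf2 at chr7:115543057-115543306 on the plus strand and Insig1 at chr4:8057770-8058019 on the minus strand.
Msmo1: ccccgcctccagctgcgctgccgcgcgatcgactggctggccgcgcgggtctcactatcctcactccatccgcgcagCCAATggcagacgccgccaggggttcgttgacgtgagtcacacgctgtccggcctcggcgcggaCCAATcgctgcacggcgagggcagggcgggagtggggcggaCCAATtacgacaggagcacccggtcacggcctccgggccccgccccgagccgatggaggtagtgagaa
Tm7sf2: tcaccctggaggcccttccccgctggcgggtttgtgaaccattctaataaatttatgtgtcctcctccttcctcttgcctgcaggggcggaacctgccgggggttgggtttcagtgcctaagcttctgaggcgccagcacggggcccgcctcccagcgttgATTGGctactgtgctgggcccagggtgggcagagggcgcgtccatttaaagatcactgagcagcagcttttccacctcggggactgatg
Srebf2: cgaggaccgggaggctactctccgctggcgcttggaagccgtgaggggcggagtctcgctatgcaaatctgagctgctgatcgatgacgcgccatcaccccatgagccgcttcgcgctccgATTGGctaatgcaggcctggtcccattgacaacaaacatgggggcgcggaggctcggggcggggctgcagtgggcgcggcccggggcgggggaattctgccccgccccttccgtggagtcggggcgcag
Insig1: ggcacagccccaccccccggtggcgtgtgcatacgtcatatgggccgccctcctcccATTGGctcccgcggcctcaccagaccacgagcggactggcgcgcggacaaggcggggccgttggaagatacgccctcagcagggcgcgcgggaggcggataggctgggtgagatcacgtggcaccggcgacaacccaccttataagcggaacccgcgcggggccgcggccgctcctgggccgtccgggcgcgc
CCAAT, the box bound by NF-Y, which works beside SREBP at many sterol genes, was searched on both strands and occurs in 34% of 33469 promoters of that length. It occurs in 12 of the 14 synthesis enzymes with a sequence (85.7%, Fdps among both counts), in 4 of 5 genes of control and transport and in 4 of 10 genes of efflux and storage (40.0%). Msmo1 holds it 173, 109 and 68 bases upstream of the start, Tm7sf2 at 89, Srebf2 at 129 and Insig1 at 193. The sterol response element TCACNCCAC occurs in 0.974% of all promoters and in none of the 29 members with a sequence. The shorter form TCACNCCA, contained in it, occurs in 3.24% of all promoters and in 2 members, Msmo1 (TCACTCCA, 190 bases upstream) and Srebf2 (TCACCCCA, 156 bases upstream). Pmvk, Fdft1, Sqle, Stard4 and Abcg1 had no sequence in the table, and these letters are a description with no bearing on whether a factor binds.

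Msmo1, a methyl oxidase that removes methyl groups from the sterol ring, stood at 128, 125 and 117 CPM in Sham, 78.7, 79.7 and 55.9 CPM in ICH and 73.4, 93.1 and 131 CPM in EDB. Every ICH library lay below every Sham library, whereas EDB ran from the level of ICH in EDB 1 to above Sham in EDB 3. Msmo1 fell in ICH against Sham with a log2 fold change of -0.79 ± 0.20 (adjusted p = 0.0201), to 0.579 of the Sham level. The call was lost without ICH 3 (log2 fold change -0.64, adjusted p = 0.0732) and held in the 18 other alternatives. In EDB against ICH the log2 fold change was 0.47 ± 0.20 (adjusted p = 0.282), and in EDB against Sham it was -0.31 ± 0.20 (adjusted p = 0.397).

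Tm7sf2, a sterol reductase that acts after the demethylase Cyp51, stood at 19.1, 18.5 and 10.6 CPM in Sham, 6.41, 8.81 and 4.48 CPM in ICH and 7.36, 8.93 and 11.8 CPM in EDB. ICH lay below Sham without overlap, and of the EDB libraries only EDB 3 reached the lowest Sham level. Tm7sf2 fell in ICH against Sham with a log2 fold change of -1.29 ± 0.31 (adjusted p = 0.0138), the largest fall among the 33 genes. The adjusted p was 0.0504 to 0.0507 without ICH 1 or ICH 3, so the call was lost, as it was with the 6 libraries that held liver transcripts. The log2 fold change was 0.51 ± 0.31 in EDB against ICH (adjusted p = 0.445) and -0.78 ± 0.30 in EDB against Sham (adjusted p = 0.149).

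Cyp51, lanosterol demethylase, was tight in Sham, at 194, 193 and 199 CPM, and spread out in ICH, at 162, 148 and 86.6 CPM, and in EDB, at 101, 151 and 193 CPM. ICH lay below Sham without overlap, but the log2 fold change of -0.56 ± 0.25 did not pass the test (adjusted p = 0.15). Sc5d, a sterol desaturase, had the same arrangement, with 75.2, 73.7 and 78.2 CPM in Sham, 65.7, 56.9 and 52.9 CPM in ICH and 55.2, 76.0 and 68.0 CPM in EDB. ICH again lay below Sham, with a log2 fold change of -0.37 ± 0.14 (adjusted p = 0.0889 by edgeR, and past the threshold by DESeq2 and with the 6 libraries that held liver transcripts).

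Fdft1, squalene synthase, stood at 107, 115 and 89.6 CPM in Sham, 74.0, 90.2 and 55.1 CPM in ICH and 82.3, 94.9 and 112 CPM in EDB. ICH 2 overlapped with Sham 3, and without ICH 2 the log2 fold change of -0.51 ± 0.18 (adjusted p = 0.0835) became -0.71 and passed the threshold (adjusted p = 0.04), as it did by DESeq2. Dhcr7, the reductase of a last step to cholesterol, stood at 32.9, 44.4 and 27.5 CPM in Sham, 21.8, 28.8 and 21.9 CPM in ICH and 23.2, 22.7 and 35.6 CPM in EDB. Sham 2 was again the highest library, and the log2 fold change in ICH against Sham was -0.53 ± 0.23 (adjusted p = 0.134).

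None of the other enzymes of these steps was called. Squalene epoxidase (Sqle), a rate-controlling enzyme, had a log2 fold change of 0.25 ± 0.20 in ICH against Sham (adjusted p = 0.439), and lanosterol synthase (Lss) had -0.35 ± 0.26 (adjusted p = 0.412). Nsdhl, a sterol dehydrogenase, ran from 23.9 to 30.4 CPM over all 9 libraries, with a log2 fold change of -0.03 ± 0.13. Hsd17b7, a ketosterol reductase, was low, at 1.84 to 4.24 CPM, with a log2 fold change of -0.28 ± 0.37. Ebp, a sterol isomerase, stood at 8.37, 8.82 and 7.86 CPM in Sham, 10.4, 9 and 7.94 CPM in ICH and 10.5, 11.5 and 9.13 CPM in EDB. It was the 1 synthesis enzyme whose EDB libraries all lay above Sham, with a log2 fold change of 0.31 ± 0.19 (adjusted p = 0.372).

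None of the 16 synthesis enzymes was called in EDB against ICH or in EDB against Sham by edgeR, DESeq2 or limma-voom. At an unadjusted p under 0.05, 1 was higher in EDB against ICH and 1 was lower in EDB against Sham. The log2 fold change was above 0 for 12 of the 16 in EDB against ICH and below 0 for 11 of the 16 in EDB against Sham.

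**Figure D3:**
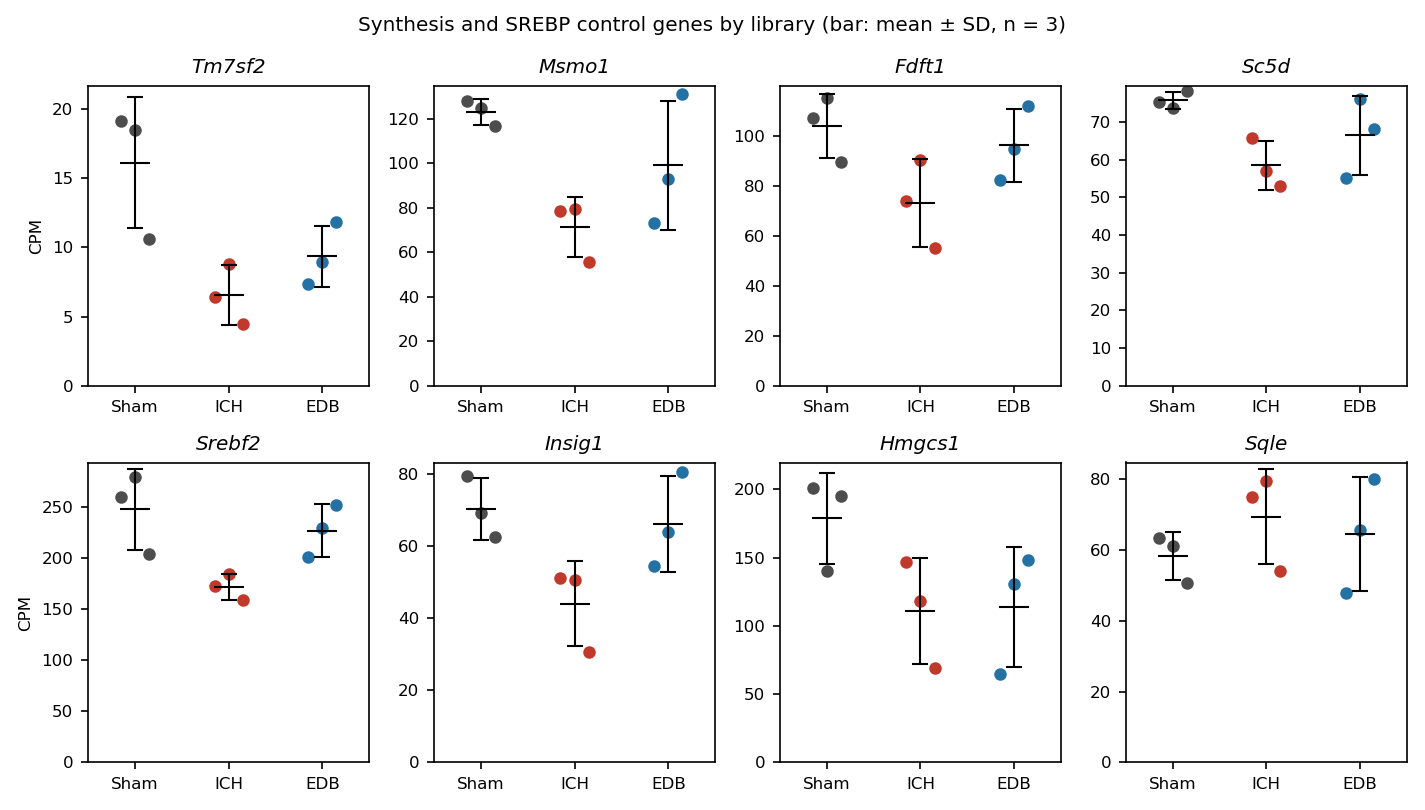
CPM by library for 6 synthesis enzymes and for Srebf2 and Insig1, with points for single libraries and the mean ± SD of each group of 3. ICH lies below Sham without overlap for Tm7sf2, Msmo1, Sc5d, Srebf2 and Insig1, and the EDB libraries spread widely, with Msmo1 from 73.4 to 131 CPM.

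Of the 6 genes of control and transport, Srebf2 and Insig1 fell in ICH against Sham. Srebf2, the SREBP that drives most sterol genes, stood at 259.8, 280 and 204 CPM in Sham, 173, 185 and 159 CPM in ICH and 201, 230.1 and 252 CPM in EDB. ICH lay below both other groups without overlap. Srebf2 fell in ICH against Sham (log2 fold change -0.53 ± 0.14, adjusted p = 0.0258), and in EDB against ICH the log2 fold change was 0.40 ± 0.14 (adjusted p = 0.203). The fall lost its call without ICH 1, ICH 3, Sham 1 or Sham 2 (adjusted p from 0.0619 to 0.0883), and with scaling by library size.

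Insig1, itself a target of the SREBPs, stood at 79.4, 69.1 and 62.4 CPM in Sham, 51.2, 50.5 and 30.5 CPM in ICH and 54.3, 63.9 and 80.6 CPM in EDB. The order of the groups was that of Srebf2, with ICH lowest and no overlap with either. Insig1 fell in ICH against Sham (log2 fold change -0.68 ± 0.21, adjusted p = 0.0469), and in EDB against ICH the log2 fold change was 0.59 ± 0.21 (adjusted p = 0.205). The fall held in 6 of 19 alternatives and lost its call when any library but EDB 3 was left out (adjusted p from 0.0504 to 0.125).

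Insig2, the second retention protein, stood at 15.6, 19.6 and 13.5 CPM in Sham, 12.5, 17.7 and 14.3 CPM in ICH and 20.5, 19.9 and 18.3 CPM in EDB. Scap, the sterol sensor and escort, stood at 203, 264 and 199 CPM in Sham, 197, 221 and 203 CPM in ICH and 251, 237 and 252 CPM in EDB. For both genes all EDB libraries lay above all ICH libraries, with log2 fold changes of 0.40 ± 0.19 (adjusted p = 0.322) and 0.25 ± 0.13 (adjusted p = 0.36). Srebf1, which serves fatty acid synthesis more than sterols, had a log2 fold change of 0.09 ± 0.20 in ICH against Sham, and Stard4, a soluble sterol carrier, had -0.50 ± 0.24 (adjusted p = 0.179). None of the 6 genes of control and transport was called in EDB against ICH by edgeR, DESeq2 or limma-voom, although 2 were higher at an unadjusted p under 0.05.

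In ICH and in EDB, 1 library stood apart for most synthesis enzymes. As the median over the 16 enzymes of the log2 CPM relative to the mean of Sham, the Sham libraries stood at 0.03, 0.08 and -0.09, the ICH libraries at -0.27, -0.16 and -0.62 and the EDB libraries at -0.44, -0.24 and 0.09. ICH 3 was the lowest ICH library for 15 of 16 enzymes, and EDB 3 was the highest EDB library for 13 of 16. The Sham libraries had no such order: Sham 2 was the highest of them for 7 enzymes and the lowest for 6. For the 11 efflux and storage genes the same measure gave -0.12, 0.11 and -0.07 in Sham, 0.83, 0.79 and 0.36 in ICH and 0.68, 0.62 and 0.22 in EDB. In both classes the ICH and Sham libraries thus did not overlap, in opposite directions, and EDB overlapped with Sham only for synthesis.

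Markers of oligodendrocytes also differed between these libraries. The 12 markers summed to 23574, 28553 and 17472 CPM in Sham, 33800, 29484 and 16925 CPM in ICH and 39717, 39616 and 45069 CPM in EDB. The lowest sum was that of ICH 3 and the highest that of EDB 3, as for the synthesis enzymes within those groups, while the ICH and Sham sums overlapped. Of the 12 markers, 1 rose in ICH against Sham (8.33%) and 3 rose in EDB against Sham (25%), and none was at 0 in any library. Of 11 astrocyte markers 2 rose and 2 fell in ICH against Sham (18.2% each). Neuronal markers were lower in ICH as well. Of these, 3 of 10 general markers (30%) and 4 of 8 tested markers of striatal projection neurons (50%) fell (median log2 fold change -0.59 for the latter). Of all genes, 11.4% rose and 7.30% fell in ICH against Sham, and 4.95% rose in EDB against Sham. The projection neuron markers summed to 10299, 15440.3 and 10273 CPM in Sham, 6348, 7708 and 8074 CPM in ICH and 10037, 10843 and 9623 CPM in EDB, none of them at 0. Every ICH sum thus lay below the 6 others. The part of cell makeup in the changes of synthesis and control genes was not tested.

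**Figure D4:**
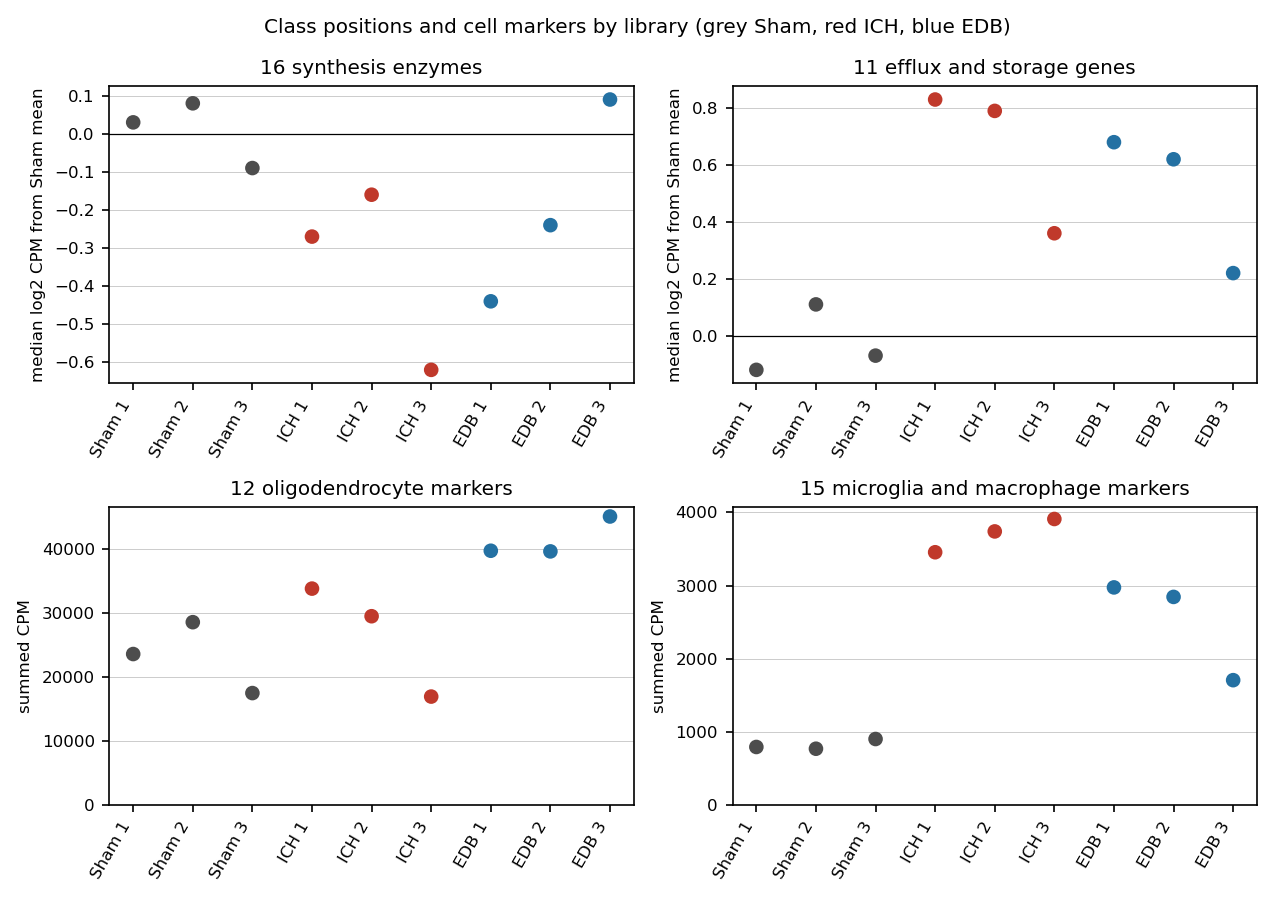
Median log2 CPM relative to the mean of Sham over 16 synthesis enzymes and over 11 efflux and storage genes in each library, beside the summed CPM of 12 oligodendrocyte and 15 microglia and macrophage markers. The ICH libraries lie below Sham for synthesis and above Sham for efflux and storage, and ICH 3 has the lowest synthesis median (-0.62) and oligodendrocyte sum.

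Other genes of the pathway were read from 7 lists. Their counts stand beside 11.4% of all genes that rose and 7.30% that fell in ICH against Sham. In EDB against Sham, 4.95% of all genes rose and 2.71% fell, and in EDB against ICH 0.631% fell. In EDB against ICH, Plin2 and Tspo fell and no gene of these lists rose, and in EDB against Sham, Mylip, Plin2, Fabp7, Pnpla2, Lamp1 and Tspo rose and Rxrg fell. Of 8 tested genes of synthesis and sterol sensing, none was called in any comparison by edgeR, while 1 was lower in ICH against Sham at an unadjusted p under 0.05 and 1 by DESeq2, and 1 was higher in EDB against ICH at an unadjusted p under 0.05. Rnf139, a ubiquitin ligase of the endoplasmic reticulum with a sterol-sensing domain, had the smallest adjusted p in ICH against Sham (log2 fold change -0.38 ± 0.13, adjusted p = 0.0718), and its ICH libraries lay below all Sham libraries.

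Among 10 tested genes listed for lipoprotein uptake, 4 rose and none fell in ICH against Sham, and limma-voom and DESeq2 gave the same counts. The list holds other genes beside receptors, so this count does not give a direction of uptake. Mylip, a liver X receptor target that codes for a ubiquitin ligase, stood at 11.2, 10.2 and 12.7 CPM in Sham, 27.8, 25.4 and 23.0 CPM in ICH and 24.4, 21.2 and 19.8 CPM in EDB. It rose in ICH (log2 fold change 1.16 ± 0.16, adjusted p = 0.000492) and in EDB (0.94 ± 0.16, adjusted p = 0.00463) against Sham, in all 19 alternatives of each. The scavenger receptors Msr1 and Olr1 also rose, from low counts: Msr1 had 4, 1 and 5 counts in Sham and 187, 57 and 107 in ICH (adjusted p = 0.00261), and Olr1 had 4, 1 and 9 against 262, 95 and 47 (adjusted p = 0.00256). The lysosomal membrane protein Scarb2 rose less, with a log2 fold change of 0.63 ± 0.12 (adjusted p = 0.00366).

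Among 8 tested genes of lipid droplets and ester release, 3 rose in ICH and 3 in EDB against Sham (37.5% each). Plin2, which coats lipid droplets, stood at 12.1, 9.30 and 11.6 CPM in Sham, 113, 59.3 and 57.4 CPM in ICH and 30.3, 22.4 and 21.5 CPM in EDB. The groups did not overlap, and EDB lay between Sham and ICH as for Soat1. Plin2 rose 6.94-fold in ICH against Sham (log2 fold change 2.79 ± 0.27, adjusted p = 7.07e-05, in all 19 alternatives), fell in EDB against ICH (-1.63 ± 0.26, adjusted p = 0.0324) and rose in EDB against Sham (1.17 ± 0.27, adjusted p = 0.0238). The fall in EDB against ICH held in 12 of 19 alternatives, with losses without ICH 2, EDB 2, EDB 3, Sham 1 or Sham 3 among them (adjusted p of up to 0.089). The rise in EDB against Sham held in 13, with losses without EDB 1 or any 1 Sham library among them (adjusted p of up to 0.0963). Fabp7, a lipid carrier of astrocytes, rose in ICH against Sham (2.04 ± 0.29, adjusted p = 0.000612). Its rise in EDB against Sham (1.30 ± 0.28, adjusted p = 0.0182) held in 15 of 19 alternatives, with losses without Sham 3 or EDB 3 among them (adjusted p of up to 0.0824). Fabp4, a lipid carrier of macrophages and fat cells, rose from 20, 1 and 1 counts in Sham to 277, 102 and 63 in ICH (adjusted p = 0.007), a call lost with the 6 libraries that held liver transcripts (adjusted p = 0.0731).

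The triglyceride lipase Pnpla2 rose in EDB against Sham (log2 fold change 0.90 ± 0.16, adjusted p = 0.00612, in all 19 alternatives), from 67.8, 87.7 and 65.6 CPM to 155, 113 and 145 CPM. Its ICH libraries, at 107, 103 and 88.9 CPM, lay between, with a log2 fold change of 0.43 against Sham (adjusted p = 0.0793).

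Among 6 tested genes of oxysterol and bile acid steps, Tspo and Cyp7b1 rose in ICH against Sham (33.3%). Tspo, a mitochondrial cholesterol-binding protein used as a marker of activated microglia, stood at 4.5, 3.69 and 3.54 CPM in Sham, 37.7, 49.1 and 48.3 CPM in ICH and 26.9, 14.7 and 17.6 CPM in EDB. It rose in ICH (log2 fold change 3.52 ± 0.25, adjusted p = 2.01e-05) and in EDB (2.33 ± 0.24, adjusted p = 0.000566) against Sham. It fell in EDB against ICH (-1.19 ± 0.22, adjusted p = 0.0439), in 9 of 19 alternatives, with losses without ICH 1, ICH 2, ICH 3, EDB 2, EDB 3, Sham 1 or Sham 3 among them (adjusted p of up to 0.158). Cyp7b1, which breaks down oxysterols such as the product of Ch25h, rose in ICH against Sham (1.08 ± 0.23, adjusted p = 0.00892).

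Among 15 tested genes of lipoproteins and efflux, 2 rose and 2 fell in ICH against Sham (13.3% each). The apolipoprotein Clu rose (log2 fold change 0.87 ± 0.18, adjusted p = 0.00752). Of the retinoid X receptors, which pair with the liver X receptors on DNA, Rxrg fell in ICH (-1.10 ± 0.24, adjusted p = 0.00808) and in EDB (-1.16 ± 0.24, adjusted p = 0.0136) against Sham, from 128, 188 and 136 CPM to 55.7, 74.9 and 79.7 CPM and to 44.9, 84.3 and 72.4 CPM. The call in EDB was lost without Sham 2 and EDB 3 (adjusted p = 0.0525). Rxra rose (0.46 ± 0.13, adjusted p = 0.0342) and Rxrb fell (-0.41 ± 0.13, adjusted p = 0.0443) in ICH against Sham, calls held in 12 and 6 of 19 alternatives. The call of Rxra was lost without ICH 2, ICH 3, Sham 1 or Sham 3 (adjusted p of up to 0.158), and that of Rxrb without Sham 1, Sham 2, ICH 1, ICH 3 or any 1 EDB library (adjusted p of up to 0.142).

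Among 13 tested fatty acid genes under SREBP1, 2 fell (15.4%) and 1 rose (7.69%) in ICH against Sham, and the median log2 fold change was -0.47. Acly, which supplies acetyl-CoA to both pathways, stood at 325, 432 and 381 CPM in Sham, 239, 264 and 232 CPM in ICH and 292, 297 and 293 CPM in EDB. It fell in ICH against Sham (log2 fold change -0.63 ± 0.12, adjusted p = 0.00506, in all 19 alternatives), and EDB lay between the groups without overlap. The desaturase Scd2 also fell (-0.65 ± 0.17, adjusted p = 0.0234), a call lost without Sham 3, ICH 2 or ICH 3 (adjusted p of up to 0.0799). The elongase Elovl5 rose (0.49 ± 0.14, adjusted p = 0.0344), a call lost without ICH 1, ICH 2, Sham 1 or Sham 3 (adjusted p of up to 0.125). Among 12 tested genes of sterol transport between membranes, 16.7% rose in ICH against Sham. They were the lysosomal Lamp1 (0.55 ± 0.13, adjusted p = 0.0131) and Lamp2 (1.20 ± 0.30, adjusted p = 0.0179). The call of Lamp1 was lost without Sham 1, Sham 3 or ICH 2 (adjusted p of up to 0.0749), and that of Lamp2 without ICH 1 (adjusted p of up to 0.0678). The rise of Lamp1 in EDB against Sham (0.50 ± 0.13, adjusted p = 0.0407) held in 9 of 19 alternatives. It was lost with the replicate number as a block, with RLE scaling and without Sham 1, Sham 3, ICH 2, ICH 3 or any 1 EDB library (adjusted p of up to 0.159).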

How the data were processed

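Messenger RNA of striatal tissue was sequenced in 9 libraries. The authors deposited counts, 1 file per library, with whole-number reads per gene that carry no normalization. The submitters' processing notes name cutadapt, HISAT2, HTSeq, limma and the build Rnor_6.0. No source used here gives their versions, the annotation, strand setting or filters, so reads of overlapping or antisense genes cannot be told apart.

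Groups were read from the sample titles. R 4.3.3 and edgeR 4.0.16 were used. The filter on low counts was filterByExpr by group, and libraries were scaled by TMM (factors from 0.9262 to 1.058). A single model held the 9 libraries, with group means as its only terms (glmQLFit with robust dispersions, glmQLFTest). The threshold was an adjusted p (Benjamini-Hochberg, over the 14274 genes tested) of under 0.05. CPM use the TMM-scaled library sizes. Depth was 14658110 to 17659936 counts per library, which limits the precision of genes at a few CPM. No pair of replicates was identical or within sampling noise (chi-square per degree of freedom from 25 to 72.5). The procedure was also run on simulated counts, drawn with the spread that edgeR fitted to these data. That run checks the procedure alone and does not bear on the calls reported here.

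Values in every library are given for genes called in any comparison, for genes whose libraries did not overlap between 2 groups, and for Hmgcs1, Dhcr7 and Fdft1, the 3 others with the largest change in ICH against Sham. Of each other list, up to 4 genes with the smallest adjusted p are named. Some genes of these lists are not reported here and are left out of their counts. The members, lists and tests were chosen with earlier results of these data known. As alternatives, scaling was by RLE or by library size only; the filter was left out or set to 1 CPM in 3 libraries; and the tool was DESeq2 1.42.0 or limma-voom (limma 3.58.1). Others fitted only the 6 libraries compared, took the replicate number as a block, left out each library in turn or, chosen after seeing the data, used 2 other sets of libraries. Promoters came from a RefSeq table of GRCr8 and were matched by symbol, which 29 of 34 genes had.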

Additional observations from a re-analysis of the deposited data

How the results depend on the processing

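The rises of Abca1, Soat1, Npc2, Lipa and Ch25h in ICH against Sham, and of Soat1 and Npc2 in EDB against Sham, were called in all 19 alternatives. Leaving out each library in turn, the number of the 33 genes called ran from 6 to 9 in ICH against Sham, 0 to 2 in EDB against ICH and 2 to 4 in EDB against Sham, against 9, 2 and 4 with all libraries. Over all genes tested it ran from 1769 to 2624 (2670 with all libraries), from 8 without ICH 2 to 321 without Sham 2 (98 with all), and from 508 without EDB 1 to 1661 without Sham 2 (1094 with all). The median log2 fold change of synthesis ran from -0.58 to -0.23, 0.05 to 0.29 and -0.31 to -0.10 in the 3 comparisons, and that of efflux and storage from 0.45 to 0.90, -0.51 to -0.29 and 0.55 to 0.76.

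In EDB against ICH, DESeq2 called 702 genes and 4 of the 33 (Abca1, Soat1, Lipa and Ch25h), limma-voom called 182 genes, and in EDB against Sham DESeq2 called 1797. In 2 sets of libraries chosen after seeing the data, EDB against ICH gave 31 genes and 0 of the 33 with the 6 libraries that held liver transcripts, and 161 genes without Sham 2 and EDB 3, while the efflux and storage median in ICH against Sham was 0.83 and 0.89. With the former set Idi1 had a log2 fold change of -1.19 in ICH against Sham, against 0.01. The cause of these shifts was not tested. Of the genes not called, 6 of 24, 9 of 31 and 11 of 29 changed sign in at least 1 alternative.

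No consistent pairing of libraries by replicate number was seen. Deviations of same-numbered libraries correlated at 0.04, 0.33 and -0.08 between ICH and Sham, and at -0.09, -0.08 and 0.21 between EDB and ICH. Between EDB and Sham they correlated at -0.33, -0.24 and -0.14. With 3 libraries per group, these values cannot settle whether any libraries were paired. With the replicate number as a block, 58 genes and 1 of the 33 (Soat1) were called in EDB against ICH. Among the 33 genes, the calls lost with the block were Insig1 in ICH against Sham, Abca1 in EDB against ICH and Lipa in EDB against Sham. Among the other pathway genes named, they were Rxra, Rxrb and Scd2 in ICH against Sham, Tspo in EDB against ICH and Lamp1 in EDB against Sham.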
